A study of Mus musculus with 30 samples.

Results

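The 10 genes described here are the 3 members of the Gadd45 family (Gadd45a, Gadd45b and Gadd45g) and 7 classical transcriptional targets of the tumour suppressor p53 (Cdkn1a, Mdm2, Bax, Bbc3, Ccng1, Phlda3 and Trp53inp1). They were taken by gene symbol from the 36103 genes of the count table, and all 10 passed the filter on low counts in all 4 tissues. RNA-seq had been performed in gastrocnemius, diaphragm, heart and liver of male mice of the 129Pas background at 5 weeks. Mtm1-/y mice (labelled Mtm1KO), which lack the phosphoinositide phosphatase myotubularin in every cell and serve as a model of X-linked myotubular myopathy, were set against wild-type (WT) littermates. There were 4 WT and 4 Mtm1-/y libraries for gastrocnemius and for heart, 4 and 3 for diaphragm (the Mtm1-/y libraries numbered 1, 2 and 4), and 3 and 4 for liver. According to the study's methods, the libraries of a group come from separate mice. Whether the tissues come from the same mice is not stated. Some libraries stood apart: WT diaphragm 1, 2 and 4 and Mtm1-/y diaphragm 2 by hepatocyte markers, WT heart 4, and Mtm1-/y liver 2 by several marker lists, each described beside the results it touches. Libraries held between 24873817 and 44289343 counts. RNA had been extracted from whole tissue, in which fewer cells of a type and less RNA per cell cannot be told apart.

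The Gadd45 proteins are small acidic proteins without enzymatic activity that are induced by stress and by growth arrest. They bind the kinase MAP3K4, which stands upstream of the p38 and JNK kinases, and they also bind PCNA, p21 and the Cdk1/cyclin B1 complex. Gadd45a is a target of p53 and, in skeletal muscle, of the stress factor ATF4, and it is known to rise after denervation, fasting and immobilisation. Gadd45b is a target of NF-kB and TGF-beta signalling, and Gadd45g is induced by cytokines. p53 is a transcription factor that binds DNA as a tetramer, each dimer of which contacts 1 decameric half-site. Its targets include brakes of the cell cycle (Cdkn1a, which codes for p21), its own ubiquitin ligase (Mdm2), inducers of apoptosis (Bax and Bbc3) and a repressor of Akt (Phlda3). Cdkn1a is also a gene of terminal muscle differentiation, where it rises without p53.

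The sequence upstream of the transcription start is shown for the Gadd45 genes and for Cdkn1a. The stretches of the 3 Gadd45 genes differ in the motifs they hold, and that of Cdkn1a holds 2 half-site matches. Whether these motifs bear on the changes of the genes was not tested. Each stretch runs 5′ to 3′ on the strand of the gene and covers 200 bases, from 220 to 21 bases upstream of the RefSeq start (build GRCm38.p6, the patch release of mm10). Cdkn1a has another RefSeq start, whose upstream window (chr17:29093519-29093768) held no half-site match. The stretch printed for it belongs to the start with the lower coordinate. Capitals mark matches to the p53 half-site consensus (Gadd45a, Cdkn1a) or the TATA box TATAAA (Gadd45b, Gadd45g). The positions are chr6:67037428-67037627 (minus strand) for Gadd45a, chr10:80929871-80930070 (plus) for Gadd45b, chr13:51846455-51846654 (plus) for Gadd45g and chr17:29090759-29090958 (plus) for Cdkn1a.
Gadd45a: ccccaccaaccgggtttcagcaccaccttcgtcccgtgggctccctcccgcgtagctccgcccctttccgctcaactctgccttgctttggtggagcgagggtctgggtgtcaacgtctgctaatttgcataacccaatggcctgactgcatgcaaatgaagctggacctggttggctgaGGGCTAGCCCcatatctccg
Gadd45b: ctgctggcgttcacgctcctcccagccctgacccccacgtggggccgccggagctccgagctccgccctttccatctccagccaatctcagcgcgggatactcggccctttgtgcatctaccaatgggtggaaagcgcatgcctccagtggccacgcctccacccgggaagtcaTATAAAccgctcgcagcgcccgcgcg
Gadd45g: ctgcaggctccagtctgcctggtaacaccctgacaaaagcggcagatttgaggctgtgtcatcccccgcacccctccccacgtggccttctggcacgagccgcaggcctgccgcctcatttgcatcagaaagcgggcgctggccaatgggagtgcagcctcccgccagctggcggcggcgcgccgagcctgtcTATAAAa
Cdkn1a: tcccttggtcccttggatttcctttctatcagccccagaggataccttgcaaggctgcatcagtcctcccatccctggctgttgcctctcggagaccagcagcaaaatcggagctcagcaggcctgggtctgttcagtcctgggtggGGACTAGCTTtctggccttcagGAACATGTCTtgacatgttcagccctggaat

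RefSeq windows reaching 250 bases upstream were at hand for 9 of the 10 genes, Trp53inp1 being the exception. A match to the p53 half-site consensus, which reads the same on both strands, lay in 5 of the 12 windows of these 9 genes, each in another gene. Of the 32851 windows of all genes, 7.13% held one. Most of the genes were chosen as p53 targets, so this comparison is no independent result. It began 40 bases upstream of the start in Gadd45a, 73 and 51 bases upstream in Cdkn1a, 186 in Mdm2, 201 in Bax and 185 in Ccng1. TATAAA, searched on both strands, was found in Gadd45b (46 bases upstream) and Gadd45g (27 bases upstream) and in 12.4% of all windows. CCAAT was found in 6 of the 9 genes (33.8% of all windows) and the GC box GGGCGG in 7 (32.7% of all windows), both strands being searched. A gene counts here if any of its windows matched, so these counts per gene and shares per window are unlike measures. Cdkn1a held GGGCGG only in the window of its other start. None of the half-site matches overlapped a match to another motif. These matches are letters in a window and no measured binding. The p53 elements described for Gadd45a and Mdm2 lie in introns, outside the windows. For the 3 other genes with a half-site match, the 50 bases around it are given with the match in capitals (Mdm2 at chr10:117710915-117710964, Bax at chr7:45467070-45467119 and Ccng1 at chr11:40755442-40755491, all on the minus strand), so that it can be compared with those of Gadd45a and Cdkn1a.
Mdm2: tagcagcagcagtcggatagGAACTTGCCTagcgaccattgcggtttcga
Bax: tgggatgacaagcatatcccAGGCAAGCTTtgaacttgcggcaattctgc
Ccng1: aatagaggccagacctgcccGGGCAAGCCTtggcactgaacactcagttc

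In mm10, with the annotation of GENCODE M21, the Gadd45 genes are short: Gadd45a (ENSMUSG00000036390) spans chr6:67035096-67037457 on the minus strand, Gadd45b (ENSMUSG00000015312) chr10:80930073-80932204 and Gadd45g (ENSMUSG00000021453) chr13:51846678-51848468, both on the plus strand. Cdkn1a (ENSMUSG00000023067) lies at chr17:29090976-29100727 and Bbc3 (ENSMUSG00000002083) at chr7:16308393-16318205, both on the plus strand, as do Phlda3 (ENSMUSG00000041801) at chr1:135766119-135769136 and Trp53inp1 (ENSMUSG00000028211) at chr4:11156431-11174379. The minus strand carries Mdm2 (ENSMUSG00000020184) at chr10:117688875-117710758, Bax (ENSMUSG00000003873) at chr7:45461697-45466898 and Ccng1 (ENSMUSG00000020326) at chr11:40748552-40755311. All 10 are protein-coding, and values below are counts over their exons.

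The 10 genes were first compared between the tissues of WT mice, as levels per length (RPKM, reads scaled to exon length and library size, mean ± SD over libraries). Ccng1, which codes for cyclin G1, was the most abundant of them in the 3 striated muscles, with 412 ± 12.0 RPKM in gastrocnemius (n = 4), 227 ± 42.7 in diaphragm (n = 4) and 227 ± 30.6 in heart (n = 4), against 12.3 ± 0.871 in liver (n = 3). Gadd45g came next in the skeletal muscles, with 98.3 ± 13.3 RPKM in gastrocnemius and 58.6 ± 14.98 in diaphragm. It held 40.8 ± 9.78 in liver and 7.45 ± 0.923 in heart. Gadd45g was thus the most abundant of the 3 family members in each tissue, whereas the heart stood apart from the other 3 tissues by its low level.

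Gadd45a, in contrast, was lowest in liver. Its level was 8.69 ± 1.38 RPKM in gastrocnemius, 4.98 ± 1.45 in diaphragm, 3.67 ± 1.00 in heart and 0.551 ± 0.298 in liver, and the neighbours diaphragm and heart did not differ beyond their spread (edgeR adjusted p = 0.192). Gadd45b held 13.2 ± 2.07 RPKM in gastrocnemius, 4.85 ± 1.31 in diaphragm, 3.93 ± 1.14 in heart and 3.56 ± 2.79 in liver, and no pair among the last 3 passed the test (edgeR adjusted p between 0.298 and 0.723). Phlda3 followed the order of Gadd45a, with 19.9 ± 7.62 RPKM in gastrocnemius, 12.8 ± 2.38 in diaphragm, 4.29 ± 0.946 in heart and 0.536 ± 0.0963 in liver, and all its neighbours in this order differed, gastrocnemius and diaphragm only with the libraries described below.

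Cdkn1a, Trp53inp1, Bax and Bbc3 showed another order, with their highest level in liver. Cdkn1a held 43.8 ± 10.2 RPKM in liver, 36.8 ± 8.84 in diaphragm, 21.6 ± 7.22 in heart and 18.7 ± 5.97 in gastrocnemius. Neither liver and diaphragm (edgeR adjusted p = 0.458) nor heart and gastrocnemius (0.550) differed beyond their spread. Trp53inp1, a stress protein that promotes p53 phosphorylation and autophagy, held 30.8 ± 5.13 RPKM in liver against 4.82 ± 0.481 to 9.96 ± 1.37 in the muscles. Bax held 12.0 ± 1.01 in liver against 6.15 ± 0.805 to 7.41 ± 0.725, and no pair of muscles passed the test for it. Bbc3, which codes for the BH3-only protein PUMA, was the least abundant in gastrocnemius (0.455 ± 0.121 RPKM) and reached 3.39 ± 0.353 in liver. Mdm2 lay between 7.27 ± 0.618 in liver and 13.8 ± 0.382 in gastrocnemius, and with all libraries every pair of tissues passed the test for it.

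**Figure D1:**
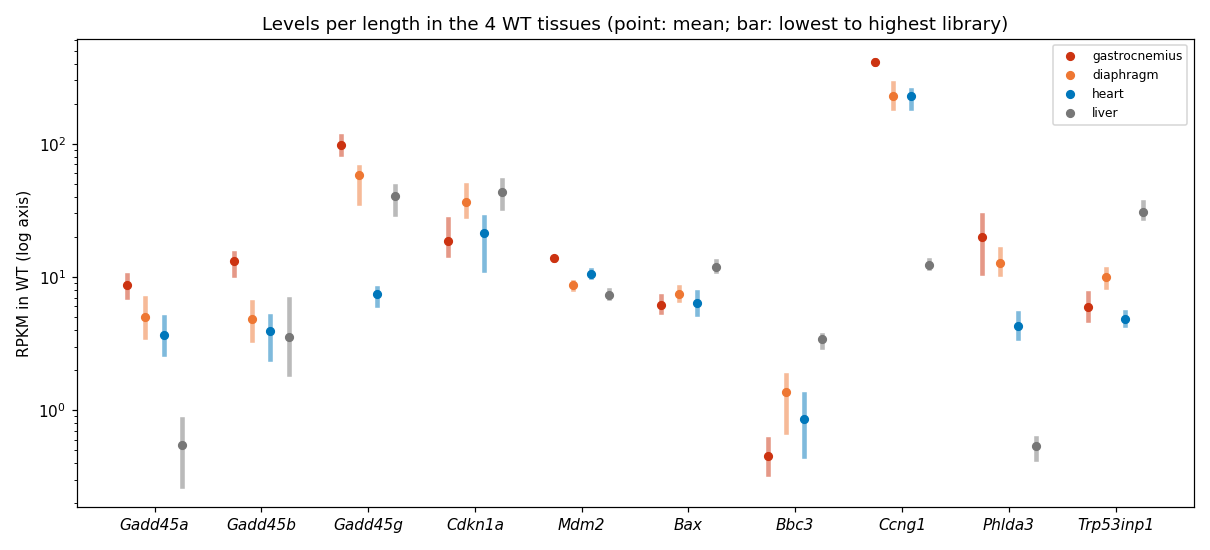
Level of the 10 genes in WT tissues, in RPKM on a log axis; points are means over 4 libraries (3 for liver) and bars run from the lowest to the highest library. Ccng1 and Gadd45g stand at the top in gastrocnemius and diaphragm, and Gadd45a and Phlda3 fall to 0.551 and 0.536 RPKM in liver.

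Over the 6 pairs of WT tissues, 48 of the 60 comparisons of a member passed the edgeR test. Gastrocnemius and liver differed for all 10 genes, where 79.5% of all genes tested differed, and gastrocnemius and diaphragm for 9 (54.4% of all genes). The other pairs gave 7 genes for gastrocnemius and heart (61.3%), 5 for diaphragm and heart (51.7%), 8 for diaphragm and liver (76.1%) and 9 for heart and liver (76.4%). Between gastrocnemius and liver the log2 difference was 5.21 for Phlda3, 5.07 for Ccng1 and 3.94 for Gadd45a. The scaling between libraries (TMM factors) behind these levels and tests assumes that most genes do not differ between tissues. With 51.7% to 79.5% of all genes called in a pair, that assumption is doubtful. The orders and differences between organs therefore hold only under this scaling.

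Hepatocyte markers were present in part of the WT diaphragms. The summed level of 6 hepatocyte markers was 35030, 22870 and 25890 CPM in WT diaphragm 1, 2 and 4, against 448 CPM in WT diaphragm 3 and at most 97.4 CPM in gastrocnemius. With those 3 libraries left out, which was chosen after the data were seen and leaves 1 WT diaphragm library that is assumed to vary like the other tissues, 38 of the 60 comparisons passed. Gastrocnemius and diaphragm then differed for 1 gene, Mdm2, in place of 9 (22.1% of all genes), and diaphragm and heart for 3, Gadd45g, Phlda3 and Trp53inp1, in place of 5 (23.4% of all genes). The calls between gastrocnemius and diaphragm for the other 8 genes thus depended on the 3 libraries left out, and the fit without them also has fewer samples. Bbc3, which is highest in liver, held 4.50, 2.85 and 4.42 CPM in the WT diaphragms with these markers and 1.76 CPM in the one without.

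The genotype comparison asked which genes respond to the loss of myotubularin in each tissue. The targeted gene was checked first. Mtm1 held 18.8 to 20.6 CPM (counts scaled to the library total and, within each tissue, by TMM factors) in the 4 WT gastrocnemius libraries and 3.98 to 5.33 in the Mtm1-/y ones, a log2 fold change of −2.07. In diaphragm it was −2.26, in heart −2.58 and in liver −1.60, and the libraries of the genotypes did not overlap in any tissue. The edgeR adjusted p was 2.07e-05 in gastrocnemius, 0.0269 in diaphragm, 2.64e-05 in heart and 0.365 in liver, where DESeq2 gave 1.23e-06. The diaphragm call was lost without WT library 1 or 2 or Mtm1-/y library 1 or 4 (edgeR adjusted p from 0.161 to 0.264). By Mtm1 every library thus matched the genotype of its label, which says nothing about its tissue.

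Gastrocnemius was the only tissue in which members passed the edgeR test. In the other tissues few or no genes of any kind passed it, so missing calls there do not show that the members were unchanged. Of the 10 genes, 5 rose in Mtm1-/y mice (Gadd45a, Cdkn1a, Bax, Bbc3 and Phlda3) and 3 fell (Gadd45b, Gadd45g and Ccng1), while Mdm2 and Trp53inp1 did not pass the test (edgeR quasi-likelihood test, Benjamini-Hochberg adjusted p below 0.05). Among all 15456 genes tested, 14.1% rose, 14.9% fell and 29.0% did either. Of the 10 genes, 6 also changed by more than 1 on the log2 scale, against 6.63% of all genes, and the libraries of 7 did not overlap between genotypes (4 higher and 3 lower, where 14.7% of all genes were higher, 16.0% lower and 30.7% either). The median log2 fold change of the 10 genes was 0.30, and that of all genes 0.02. DESeq2 called the same number, 8 of 10, and 25.7% of all genes.

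The scaling matters for the sign of small effects in this tissue. The TMM factors lay between 0.855 and 0.932 in WT and between 1.101 and 1.159 in Mtm1-/y libraries. Scaling to library totals alone moved the median of all genes from 0.02 to 0.35, and the calls over all genes from 2173 higher and 2306 lower to 7647 higher (49.5%) and 647 lower (4.19%). With these totals 6 members rose and 3 fell: the 8 named above kept their direction, Mdm2 was added (log2 fold change 0.46, edgeR adjusted p = 0.00229) and Trp53inp1 turned from −0.00 to 0.34 without passing.

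Gadd45a changed most. Its level was 14.2, 11.3, 13.6 and 16.6 CPM in the WT libraries 1 to 4 and 101, 79.3, 51.1 and 46.8 CPM in the Mtm1-/y libraries 1 to 4. Every Mtm1-/y library stood well above the highest WT library, although the Mtm1-/y libraries themselves spread over a wide range. The mean rose from 13.9 ± 2.17 to 69.5 ± 25.3 CPM (SD, n = 4 each), 4.98-fold, with a log2 fold change of 2.32 (SE 0.24) and an edgeR adjusted p of 0.000264.

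The other members of the family moved in the opposite direction. Gadd45b held 19.2, 14.8, 21.8 and 20.4 CPM in WT and 6.59, 4.24, 5.50 and 12.8 CPM in Mtm1-/y gastrocnemius. All 4 Mtm1-/y libraries were below the lowest WT library, library 4 being closest to it. The log2 fold change was −1.39 (SE 0.29; 2.61-fold lower), with an edgeR adjusted p of 0.00692. Gadd45g, the most abundant of the family, held 96.6, 89.8, 113 and 120 CPM in WT and 46.7, 44.3, 62.2 and 13.4 CPM in Mtm1-/y. The groups again did not overlap, and Mtm1-/y library 4, which was the highest of its group for Gadd45b, was the lowest for Gadd45g. Gadd45g fell 2.51-fold (log2 fold change −1.33, SE 0.36, edgeR adjusted p = 0.0198), and without WT library 4 this call was lost (−1.26, adjusted p = 0.05002).

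The genes of the cell cycle were divided as well. Cdkn1a, whose product p21 inhibits cyclin-dependent kinases, held 47.2, 46.9, 60.2 and 87.3 CPM in WT and 235, 230, 143 and 124 CPM in Mtm1-/y libraries. The lowest Mtm1-/y library exceeded the highest WT library, and the first 2 Mtm1-/y libraries were the highest for Cdkn1a as they were for Gadd45a. The rise was 3.03-fold (log2 fold change 1.60, SE 0.26, edgeR adjusted p = 0.00182). Ccng1, whose product binds Mdm2 and the phosphatase PP2A, held 1267, 1321, 1359 and 1311 CPM in WT and 682, 987, 806 and 804 CPM in Mtm1-/y. It fell in every Mtm1-/y library, 1.60-fold in the mean (log2 fold change −0.68, SE 0.11, edgeR adjusted p = 0.00145). Thus the most abundant p53 target of this muscle was reduced while Cdkn1a rose.

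Phlda3, whose product competes with Akt for membrane phosphoinositides, held 28.0, 41.4, 15.1 and 27.9 CPM in WT and 103, 107, 60.2 and 97.8 CPM in Mtm1-/y libraries. The groups did not overlap. The rise was 3.29-fold (log2 fold change 1.72, SE 0.28, edgeR adjusted p = 0.00182).

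Of the inducers of apoptosis, Bax changed little in size but evenly. It held 10.3, 8.01, 7.79 and 9.16 CPM in WT and 12.3, 12.0, 12.7 and 11.9 CPM in Mtm1-/y libraries, which lay within a narrow band above all WT values. Its product opens pores in the outer mitochondrial membrane. The rise was 1.39-fold (log2 fold change 0.47, SE 0.10, edgeR adjusted p = 0.00695). Bbc3 was scarce, with 23, 21, 31 and 37 counts in WT and 141, 77, 38 and 120 counts in Mtm1-/y libraries, or 0.640, 0.771, 0.929 and 1.17 against 3.38, 2.33, 1.06 and 3.23 CPM. Mtm1-/y library 3 fell among the WT ones, so that the groups overlapped, and the log2 fold change was 1.51 (SE 0.36, edgeR adjusted p = 0.0116).

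Both genes of p53 feedback that remain showed no call. Mdm2 held 62.0, 64.9, 65.7 and 62.4 CPM in WT and 78.9, 72.4, 66.3 and 60.2 CPM in Mtm1-/y, with a log2 fold change of 0.12 (SE 0.08, edgeR adjusted p = 0.292). Trp53inp1 held 28.3, 32.8, 44.5 and 33.3 CPM in WT and 26.5, 28.0, 57.5 and 26.6 CPM in Mtm1-/y, where library 3 stood apart from the other 3. Its log2 fold change was −0.00 (SE 0.26, edgeR adjusted p = 0.993).

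**Figure D2:**
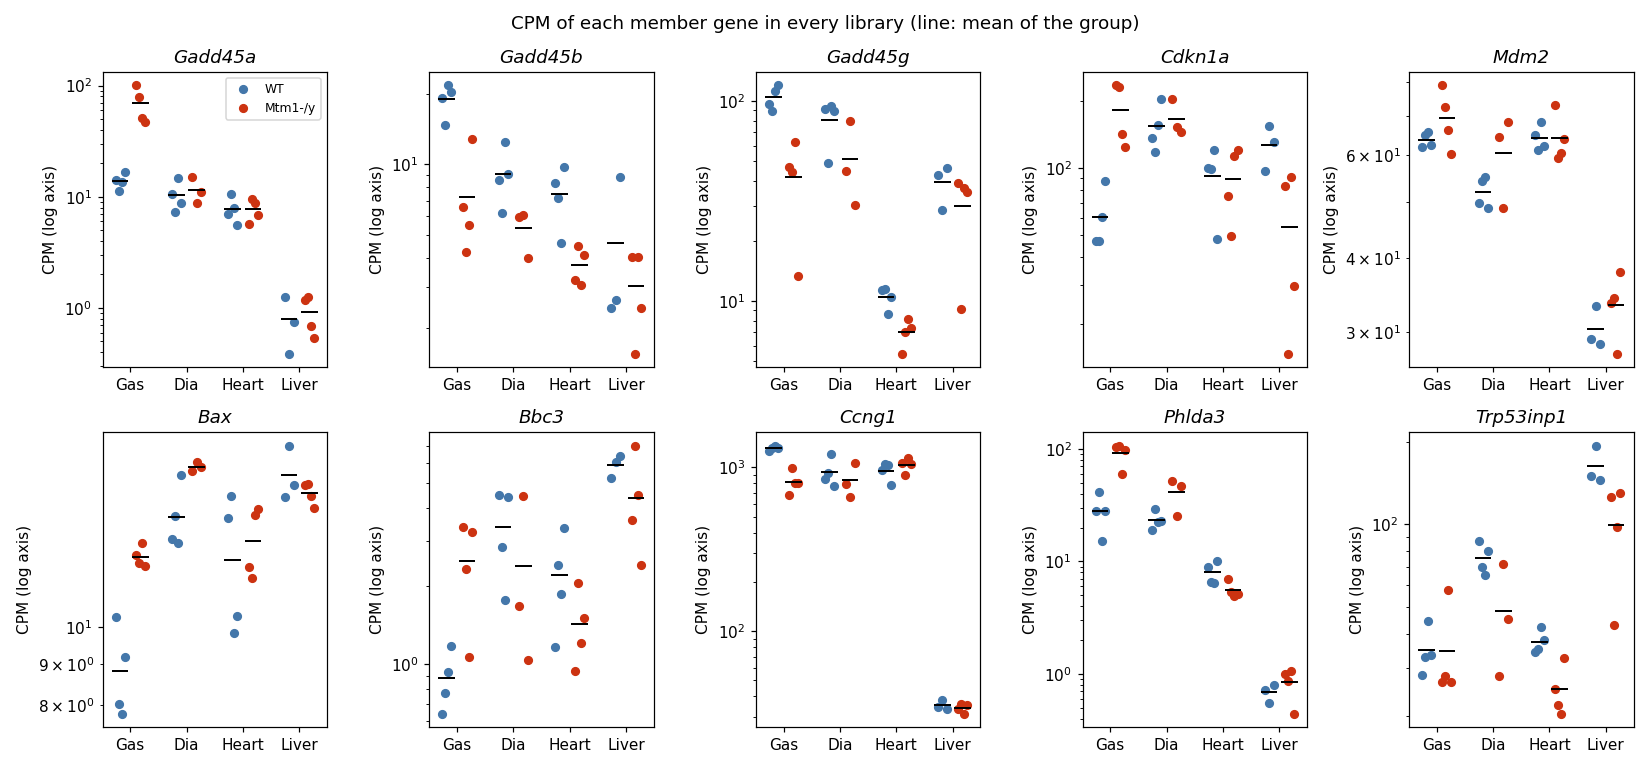
Level of the 10 genes in each of the 30 libraries, by tissue and genotype, in CPM on a log axis; each point is 1 library and the line is the group mean. In gastrocnemius the Mtm1-/y libraries of Gadd45a (46.8 to 101 CPM) lie above all WT libraries (11.3 to 16.6 CPM), and those of Gadd45b and Gadd45g lie below theirs.

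RNA of cell type markers differed between genotypes in the gastrocnemius libraries as well. The summed level of 6 fast myofibre genes was 132500 to 156400 CPM in WT and 78870 to 93820 CPM in Mtm1-/y libraries, with 5 lower and 1 higher by the edgeR test. Macrophage markers summed to 22.9 to 39.4 CPM in WT and 69.1 to 88.1 in Mtm1-/y, and all 6 rose. White adipocyte markers summed to 19.1 to 88.3 and 74.6 to 157 CPM (5 of 6 rose), and those of fibroblasts to 1998 to 4461 and 2624 to 5809 CPM (3 of 5 rose). Endothelial markers lay at 350 to 465 against 254 to 333 CPM (3 of 5 fell), and satellite cell markers at 10.1 to 10.9 against 5.08 to 6.93 CPM (2 of 3 fell). None of these markers was at 0, and their part in the changes of the members was not tested.

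Around the 10 genes, 8 lists of related genes were described in gastrocnemius. Of all genes tested there, 14.1% rose, 14.9% fell and 29.0% did either, with a median log2 fold change of 0.02. p53 itself (Trp53) rose from 18.5 ± 0.699 to 26.9 ± 2.07 CPM (log2 fold change 0.54, edgeR adjusted p = 0.000759). Its paralogue Trp63 rose from 9.12 ± 1.29 to 30.4 ± 2.71 CPM (1.74, 3.32e-05) and its binding partner Trp53bp1 rose from 24.4 to 33.5 CPM (0.46, 0.00218). In all, 3 of the 10 tested regulators of p53 rose and 0 fell, with a median log2 fold change of 0.20. The share called was thus close to the 29.0% of all genes. Of 23 further p53 targets, 7 rose and 3 fell (median 0.35). The largest rise among these belonged to Eda2r, a receptor of the TNF family, from 11.5 ± 1.66 to 127 ± 34.9 CPM (3.47, edgeR adjusted p = 2.48e-05). Plk2, a kinase of the centrosome cycle, rose from 7.16 to 16.2 CPM (1.17) and Pidd1, a scaffold of caspase-2 activation, from 0.984 to 1.96 CPM (0.99), whereas Polk, a translesion DNA polymerase, fell from 19.2 to 6.76 CPM.

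Among the partners of the Gadd45 proteins and the stress kinases that act after them, 8 of 15 fell and 1 rose (median −0.35). Of all genes 14.9% fell and 14.1% rose, with a median of 0.02. Map2k6, which activates p38, fell from 43.4 to 18.1 CPM (log2 fold change −1.26, edgeR adjusted p = 0.000174), and the p38 gene Mapk14 from 206 to 134 CPM (−0.62). Map2k4, which activates JNK, fell from 137 to 95.2 CPM (−0.52) and the JNK gene Mapk9 from 74.7 to 48.7 CPM (−0.62). Of 17 genes of the BCL-2 family and the caspases, 6 rose and 2 fell (median 0.17). The BH3-only gene Bid rose from 0.623 to 2.51 CPM (2.00) and Bak1, a partner of Bax in pore formation, from 20.5 to 26.0 CPM (0.34), while cytochrome c (Cycs) fell from 21.4 to 14.1 CPM (−0.60). The edgeR adjusted p of these 3 lay between 0.000791 and 0.00544. None of the 5 other CDK inhibitors passed the test (edgeR), and the most abundant, Cdkn1b and Cdkn1c, had log2 fold changes of −0.00 and 0.08. Cdkn1a was thus the only CDK inhibitor of the 6 tested that passed the test in this muscle, which does not show the others to be unchanged.

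The denervation-responsive genes moved together: 12 of 14 rose and 0 fell, with a median log2 fold change of 1.77. Of all genes 14.1% rose and 14.9% fell, with a median of 0.02. Runx1, a transcription factor kept low by innervation, rose from 2.22 to 29.6 CPM (3.73), embryonic myosin Myh3 from 8.56 to 121 CPM (3.82), the adhesion molecule Ncam1 from 13.4 to 45.7 CPM (1.77) and the acetylcholine receptor subunit Chrna1 from 37.1 to 126 CPM (1.77), each with an edgeR adjusted p below 0.001. Of the immediate-early genes, 6 of 15 rose and 1 fell (median 0.88). Egr1 rose from 8.22 to 47.4 CPM (2.52), Junb from 2.87 to 19.5 CPM (2.77) and Myc from 3.68 to 9.26 CPM (1.33), whereas Nr4a1, which is induced by muscle contraction, fell from 396 to 145 CPM (−1.45). Of the 10 glucocorticoid-responsive genes, the metallothioneins Mt2 (24.3 to 149 CPM, 2.61) and Mt1 (31.6 to 91.5 CPM, 1.53) rose and Klf9 fell (244 to 179 CPM, −0.45), the median being −0.25. These 2 rises and 1 fall are close to the shares of all genes. None of the 8 lists had a gene that passed the edgeR test in diaphragm, heart or liver. The denervation-responsive genes nevertheless had a median log2 fold change of 1.15 in diaphragm (all genes −0.01), where only 2 of 16796 genes passed in all.

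**Figure D3:**
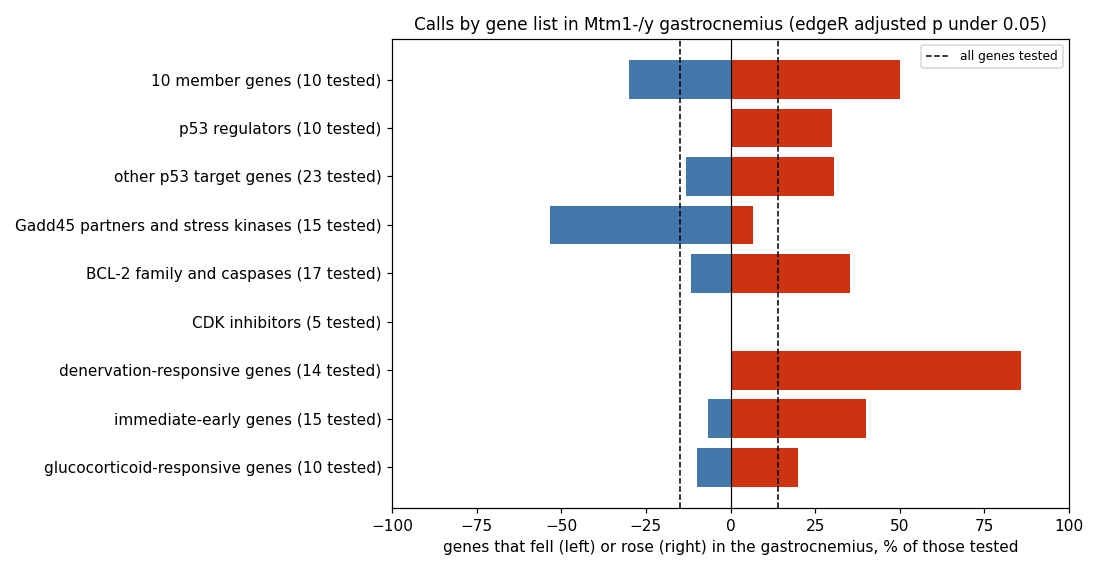
Share of the genes tested in each list that rose or fell in Mtm1-/y gastrocnemius (edgeR adjusted p below 0.05), in percent; dashed lines give the shares over all genes (14.1% rose, 14.9% fell). Of the denervation-responsive genes 12 of 14 rose, and of the Gadd45 partners and stress kinases 8 of 15 fell.

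In diaphragm no member passed the edgeR test, but neither did most other genes: 0.0119% of 16796 were called, and the biological coefficient of variation was 0.394 against 0.171 in gastrocnemius. DESeq2 also called 0 members (2.37% of all genes). At an unadjusted p below 0.05 there were 2 of 10, Gadd45b and Phlda3 (10.8% of all genes). A group of 4 of the 7 libraries (WT 1, 2 and 4 and Mtm1-/y 2) held between 22870 and 43900 summed CPM of 6 hepatocyte markers, and the others between 448 and 2653, so that hepatocyte RNA was present in part of each group. Fibroblast markers summed to 1778 to 3698 CPM in WT and 3947 to 7833 CPM in Mtm1-/y diaphragm (median log2 fold change of the 5 genes 1.31), and satellite cell markers to 7.91 to 13.1 and 4.78 to 6.495 CPM. Neither list overlapped between genotypes, no gene of either passed the edgeR test, and their part in the values below was not tested.

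Gadd45b held 8.57, 6.19, 12.5 and 9.13 CPM in WT diaphragm and 5.98, 6.10 and 3.97 CPM in Mtm1-/y diaphragm. The Mtm1-/y libraries were all lower, the closest pair being nearly level, with a log2 fold change of −0.77 (SE 0.27, unadjusted p = 0.0256, edgeR adjusted p = 0.395). Gadd45g held 90.9, 49.3, 94.2 and 88.9 CPM in WT and 44.6, 79.2 and 30.2 CPM in Mtm1-/y (−0.66, SE 0.37). Here the groups overlapped, through WT library 2 and Mtm1-/y library 2, both among the libraries with hepatocyte markers. With the 4 libraries rich in these markers left out, a choice made after the data were seen that leaves 1 WT and 2 Mtm1-/y libraries, the log2 fold change was −1.33 for Gadd45b and −1.33 for Gadd45g, values given without a test because the targeted gene itself could not be called at this size (edgeR adjusted p = 0.562).

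Gadd45a, which rose most in gastrocnemius, held 10.6, 7.30, 14.7 and 8.86 CPM in WT diaphragm and 15.02, 8.79 and 10.9 CPM in Mtm1-/y diaphragm. The groups overlapped widely, with a log2 fold change of 0.16 that turned to −0.18 without the libraries rich in hepatocyte markers. Phlda3 held 18.9, 29.2, 22.5 and 23.1 CPM in WT and 52.2, 25.6 and 46.6 CPM in Mtm1-/y. Mtm1-/y libraries 1 and 4 stood above all WT libraries and library 2 among them, with a log2 fold change of 0.82 (SE 0.26, unadjusted p = 0.0156, edgeR adjusted p = 0.351). Bax held 12.7 to 15.5 CPM in WT and 15.7 to 16.1 in Mtm1-/y, so that it and Gadd45b were the 2 genes whose libraries did not overlap (9.97% of all genes). The log2 fold changes of the other members ran from −0.65 for Trp53inp1 to 0.22 for Mdm2, with a median over the 10 of −0.02 (all genes −0.01).

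In heart no member passed the edgeR test either, where 0.00656% of 15238 genes did, which was a single gene. At an unadjusted p below 0.05, 4 of 10 members were lower in Mtm1-/y mice and 0 higher, against 5.83% of all genes lower. These were Gadd45b, Gadd45g, Trp53inp1 and Phlda3. DESeq2 called 1 of 10, Gadd45b (0.453% of all genes). The median log2 fold change of the 10 was −0.28 and that of all genes −0.00.

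Gadd45b held 8.37, 7.20, 4.62 and 9.79 CPM in WT heart and 3.22, 4.47, 3.06 and 4.11 CPM in Mtm1-/y heart. No Mtm1-/y library reached the lowest WT library. The log2 fold change was −1.01 (SE 0.24, unadjusted p = 0.00198), with an adjusted p of 0.546 by edgeR and 0.0195 by DESeq2. Gadd45g held 11.3, 11.5, 8.63 and 10.5 CPM in WT and 5.46, 7.04, 8.18 and 7.31 CPM in Mtm1-/y, and Trp53inp1 held 34.1, 35.2, 42.2 and 38.0 CPM against 25.2, 22.0, 20.4 and 32.5 CPM. In both cases all Mtm1-/y libraries were lower, which together with Gadd45b made 3 genes without overlap, all lower (2.16% of all genes). Their log2 fold changes were both −0.58 (SE 0.15 and 0.14), with adjusted p-values of 0.0806 and 0.0748 by DESeq2.

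Phlda3 held 8.96, 6.57, 6.46 and 10.1 CPM in WT heart and 6.91, 5.38, 4.96 and 5.12 CPM in Mtm1-/y heart. The first Mtm1-/y library overlapped with WT, and the log2 fold change was −0.52 (SE 0.18, unadjusted p = 0.0196). Gadd45a held 5.55 to 10.6 CPM in WT and 5.72 to 9.49 CPM in Mtm1-/y heart, and Cdkn1a 48.3 to 120 and 49.7 to 120 CPM, with log2 fold changes of −0.00 and −0.03. Mdm2 (−0.00), Bax (0.08) and Ccng1 (0.12) were as close to 0, and Bbc3 lay at −0.63 with overlapping libraries. White adipocyte markers summed to 34.9 to 132 CPM in WT and 5.48 to 14.2 CPM in Mtm1-/y heart, and B cell markers to 1.62 to 3.23 and 3.55 to 4.52 CPM, without overlap and with no gene passing the edgeR test. Their part in the values of the members was not tested.

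WT heart library 4 stood apart from the other WT hearts. Its counts differed from theirs by a chi-square per gene of 146 to 239, against 17.2 to 34.3 among the other 3, and its cardiomyocyte markers summed to 64840 CPM, against 34190 to 41260 CPM. Several other lists were highest there among WT hearts, such as fibroblast (3777 against 1629 to 2549 CPM), white adipocyte (132 against 34.9 to 96.7) and Schwann cell markers (39.6 against 13.95 to 26.8). Fast myofibre and B cell markers were lowest there. The part of these markers in the values of the members was not tested. Library 4 held the highest WT value of Gadd45b, Phlda3 and Bbc3. Without it the log2 fold change was −0.85 for Gadd45b, −0.38 for Phlda3 and −0.35 for Bbc3, while Gadd45g (−0.58) and Trp53inp1 (−0.57) stayed close to their values with it. No member passed the edgeR test without it.

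In liver no gene of the 14305 tested passed the edgeR test (0%), and no member passed at an unadjusted p below 0.05 (4.24% of all genes) or by DESeq2 (0.163%). The lowest unadjusted p-values belonged to 2 genes whose Mtm1-/y libraries all lay below WT (3.47% of all genes). Cdkn1a held 96.7, 154 and 131 CPM in WT and 83.0, 14.7, 90.8 and 29.7 CPM in Mtm1-/y liver. Mtm1-/y libraries 2 and 4 were far below the other 5, and the log2 fold change was −1.22 (SE 0.54, unadjusted p = 0.0523, edgeR adjusted p = 0.969). Trp53inp1 held 151, 194 and 145 CPM in WT and 126, 43.0, 98.2 and 130 CPM in Mtm1-/y (−0.72, SE 0.33, unadjusted p = 0.0582). The second Mtm1-/y library was lowest again, as it was for Gadd45g with 9.11 CPM against 35.2 to 38.9 CPM in the other Mtm1-/y and 28.5 to 46.4 CPM in the WT livers. That library stood apart in several marker lists: it had the lowest sum for macrophages (28.7 CPM against 92.4 to 147 CPM in the other 6), endothelial cells (65.1 against 115 to 136), fibroblasts (114 against 193 to 391), B cells (0.434 against 1.14 to 2.13) and erythroid cells (176 against 279 to 852). Their part was not tested. Without it the log2 fold change was −0.91 for Cdkn1a, −0.47 for Trp53inp1 and −0.09 for Gadd45g. Gadd45a held 0.387 to 1.26 CPM in both genotypes.

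**Figure D4:**
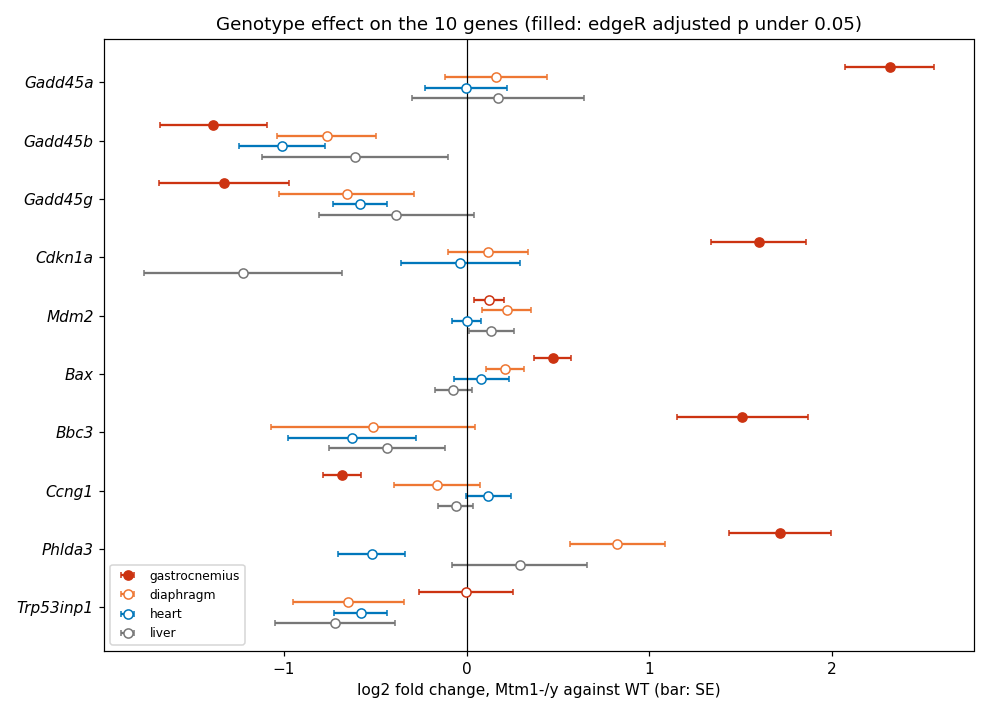
Log2 fold change of the 10 genes, Mtm1-/y against WT, in 4 tissues, with bars of 1 SE; filled points passed the edgeR test (adjusted p below 0.05). All filled points belong to gastrocnemius, and the values of Gadd45b (−1.39, −0.77, −1.01 and −0.61) and Gadd45g are below 0 in each tissue.

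Side by side, Gadd45b had log2 fold changes of −1.39 in gastrocnemius, −0.77 in diaphragm, −1.01 in heart and −0.61 in liver, and Gadd45g had −1.33, −0.66, −0.58 and −0.39. Without WT liver library 3 the liver value of Gadd45b turned to 0.24. Gadd45a had 2.32, 0.16, −0.00 and 0.17. Whether the genotype effect differed between tissues was tested in a model of both tissues with an interaction term. The contrasts with gastrocnemius share its 8 libraries and are not independent of each other.

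Between heart and gastrocnemius 5 of the 10 genes differed, against 19.8% of all genes. The effect in heart was lower by 2.31 for Gadd45a (SE 0.36, edgeR adjusted p = 0.000786), by 1.61 for Cdkn1a (SE 0.46, 0.0237), by 2.12 for Bbc3 (SE 0.54, 0.0134) and by 2.21 for Phlda3 (SE 0.37, 0.00118), and higher by 0.82 for Ccng1 (SE 0.17, 0.00461), on the log2 scale. All 4 genes that had risen by more than 1 in gastrocnemius were among them. That rise was measured in the same gastrocnemius libraries that enter this contrast, so the overlap is no separate evidence. For Cdkn1a the call was lost without WT gastrocnemius library 2 (adjusted p = 0.0523) or Mtm1-/y gastrocnemius library 1 (0.0503). Gadd45b and Gadd45g had log2 fold changes below 0 in both tissues, though neither passed the edgeR test in heart. For them no difference passed: it was 0.39 (SE 0.41, edgeR adjusted p = 0.533) for Gadd45b and 0.77 (SE 0.44, 0.228) for Gadd45g, errors that do not show the effects to be alike.

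Between liver and gastrocnemius 5 genes differed (6.34% of all genes). The effect in liver was lower by 2.17 for Gadd45a (SE 0.52, edgeR adjusted p = 0.0258), by 2.79 for Cdkn1a (SE 0.65, 0.0206), by 0.52 for Bax (SE 0.14, 0.0411) and by 1.92 for Bbc3 (SE 0.52, 0.0409), and higher by 0.65 for Ccng1 (SE 0.17, 0.0334). These calls were close to the threshold. Leaving out any 1 of 12 of the 15 libraries (all but WT gastrocnemius 1 and Mtm1-/y liver 1 and 2) brought the count down to between 1 and 3.

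Both skeletal muscles differed in 1 gene of the 10, Gadd45a, where 0.280% of all genes differed. Its effect was larger by 2.16 in gastrocnemius than in diaphragm (SE 0.40, edgeR adjusted p = 0.0467). The call was lost without any 1 of 12 of the 15 libraries, being kept only without Mtm1-/y gastrocnemius 3 or 4 or WT diaphragm 3, and also with DESeq2 size factors (adjusted p = 0.0506), while DESeq2 itself gave 9.77e-05. Cdkn1a differed by 1.49 (edgeR adjusted p = 0.152, DESeq2 0.0164). Between heart and diaphragm no member differed by edgeR (0.00573% of all genes). The largest value there was for Phlda3, −1.33 (SE 0.33, adjusted p = 0.187 by edgeR and 0.0245 by DESeq2). Both contrasts with diaphragm include the 4 diaphragm libraries rich in hepatocyte markers, and neither was refitted without all of them. In diaphragm alone, leaving these libraries out turned the log2 fold change of Gadd45a from 0.16 to −0.18. Their part in the contrasts was not tested.

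**Figure D5:**
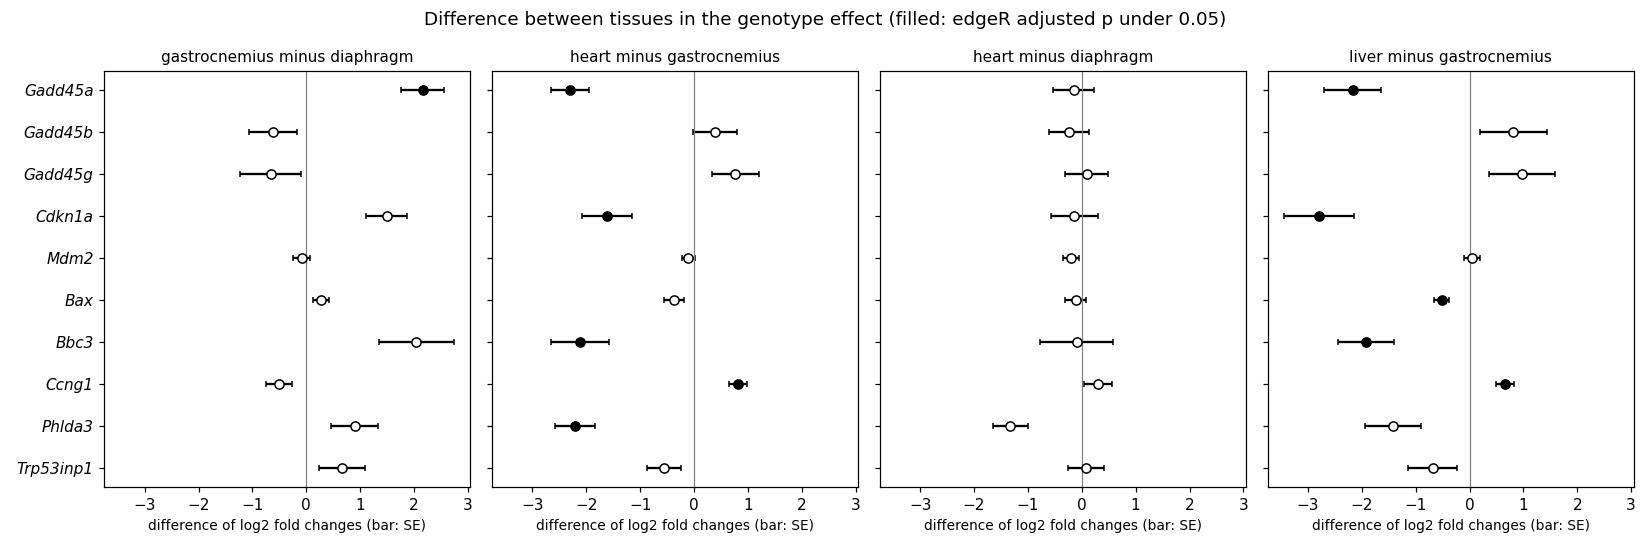
Difference between 2 tissues in the genotype effect on the 10 genes (difference of log2 fold changes, bars of 1 SE), for 4 pairs of tissues; filled points passed the edgeR test. Gadd45a is filled in each of the 3 pairs with gastrocnemius (2.16, −2.31 and −2.17), and no point is filled for heart minus diaphragm.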

How the data were processed

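Libraries had been made with a stranded mRNA kit from RNA of whole tissue. According to the methods and the submitters' processing notes, the authors trimmed reads (cutadapt 1.10), mapped them (STAR 2.5.3a, mm10) and counted the uniquely aligned ones per Ensembl gene (HTSeq 0.6.1p1, union mode, ambiguous reads dropped). Whether counting used the strand is not given in the sources used here, so reads from overlapping antisense genes may not be told apart. The deposited values are raw counts of 36103 genes in 30 libraries, 24873817 to 44289343 per library.

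Each tissue was fitted alone with edgeR 4.0.16 (R 4.3.3): filterByExpr with a minimum count of 10, TMM factors, glmQLFit and glmQLFTest, Benjamini-Hochberg adjustment over all genes tested and a threshold of 0.05. Differences between tissues came from interaction terms in fits of 2 tissues, and WT tissues were compared in 1 fit. CPM used TMM-scaled library sizes, and RPKM used exon lengths of GENCODE M21. Scripts were tested on simulated data. DESeq2 1.42.0, other scalings, no filter, other sample sets, a replicate block and leaving out each library were alternatives. The members and lists were chosen with earlier results of these data known. Genes named beside the members were, per list, the up to 4 genes of lowest p that passed in gastrocnemius, or the 2 most abundant where none passed; 1 gene so chosen is not reported here.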

Additional observations from a re-analysis of the deposited data

Results flagged for a closer look

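Among 60 groups of 4 libraries (10 genes and Mtm1-/y or WT libraries of a tissue) 3 held a library farther from the rest than Dixon's criterion allows, and chance alone gives such a library in about 1 in 20 groups. Trp53inp1 stood at 57.5 CPM in Mtm1-/y gastrocnemius 3 (ratio 0.951), Gadd45g at 49.3 CPM in WT diaphragm 2 (0.882), a library with hepatocyte markers, and Gadd45g at 9.11 CPM in Mtm1-/y liver 2 (0.875), the library lowest in macrophage, endothelial, fibroblast, B cell and erythroid markers.

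The effect of the genotype differed between tissues by the edgeR interaction test for 6 genes. Gadd45a differed in 3 contrasts, by 2.16 for gastrocnemius minus diaphragm, −2.31 for heart minus gastrocnemius and −2.17 for liver minus gastrocnemius. In the last 2 contrasts Cdkn1a differed by −1.61 and −2.79, Bbc3 by −2.12 and −1.92 and Ccng1 by 0.82 and 0.65. Phlda3 differed by −2.21 between heart and gastrocnemius and Bax by −0.52 between liver and gastrocnemius. The 3 contrasts share the gastrocnemius libraries.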

How the results depend on the processing

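Of the values of single genes, 330 kept their direction and their side of the threshold under the alternatives other than leaving out a library, 8 lost the call, 5 gained one and 9 changed sign; with 1 library left out these numbers were 417, 58, 0 and 25. The number of members called in gastrocnemius was 8 and ranged from 6 to 9 (7 to 8 with a library left out), and it stayed at 0 in diaphragm and liver. In heart it was 0, and 1 by DESeq2. For gastrocnemius minus diaphragm the count was 1, but 0 with DESeq2 size factors, 2 by DESeq2, 0 without the filter and 0 to 1 with a library left out. For heart minus diaphragm it was 0, but 1 by DESeq2 and 0 to 1 with a library left out (1 without Mtm1-/y diaphragm 2). For liver minus gastrocnemius it was 5, but 6 by DESeq2, 2 without the filter and 1 to 5 with a library left out. Heart minus gastrocnemius gave 4 to 5 with a library left out, and WT tissues 43 to 49 against 48 (38 without the 3 WT diaphragms rich in hepatocyte markers).

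The values that changed sign were all without a call. Trp53inp1 in gastrocnemius was 0.34 with library totals and −0.35 to 0.14 with a library left out. Gadd45a in diaphragm was −0.18 without the 4 libraries rich in hepatocyte markers. In heart, Gadd45a was 0.00179 with DESeq2 size factors, 0.00355 by DESeq2 and 0.00291 with all 30 libraries in 1 fit, and Mdm2 0.00577, 0.00806 and 0.00758. With a library left out, Gadd45a ran from −0.0684 to 0.40 in diaphragm, from −0.13 to 0.18 in heart and from −0.15 to 0.68 in liver. Likewise Gadd45b in liver ran from −0.92 to 0.24, Cdkn1a from −0.0483 to 0.28 in diaphragm and from −0.24 to 0.17 in heart, Ccng1 in diaphragm from −0.36 to 0.00239, Mdm2 in heart from −0.0672 to 0.0397 and Bax in heart from −0.00531 to 0.19. The cause of these changes was not tested. Depth was lowest for Gadd45a and Phlda3 in liver (down to 12 and 17 counts in a library) and for Bbc3 in gastrocnemius (21). Library totals without TMM factors and the diaphragm without libraries rich in hepatocyte markers (both sets of fits) were chosen after seeing the data.

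Within a tissue, deviations of WT and Mtm1-/y libraries of the same replicate number correlated at −0.01 to 0.10 in gastrocnemius and −0.69 to 0.51 in diaphragm. The range was −0.59 to 0.31 in heart and −0.01 to 0.42 in liver. These values lay on both sides of 0 in each tissue. Whether the numbers mark pairs was not tested. With the replicate number as a block, 8 members were called in gastrocnemius and 0 in the other tissues, Gadd45a in heart was 0.00705, and Mtm1 in diaphragm lost its call (−2.10, edgeR adjusted p = 0.560).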

Other observations

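Over the 8 group means (4 tissues by 2 genotypes) and 12489 genes compared, the genes whose log2 level ran most like that of Gadd45a were Exosc9, a subunit of the RNA exosome (Pearson r = 0.988), Tmem229b (0.986) and Ccnq (0.981). For Gadd45g they were Abhd11 (0.985), Dusp14, a dual-specificity phosphatase (0.962), and the nuclear pore gene Nup210 (0.962). For Gadd45b they were Zfp768 (0.949), Ginm1 (0.944) and the pseudogene Gm10033 (0.940), and for Cdkn1a the deacetylase gene Sirt6 (0.879), Egr1 (0.866) and Fam110a (0.859). These correlations describe 8 means, which share tissues and libraries.

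Eda2r, whose rise in gastrocnemius is given above, averaged 16.2 CPM in diaphragm of WT mice and 73.8 CPM in that of Mtm1-/y mice (log2 fold change 2.19, edgeR adjusted p = 0.264), and its libraries did not overlap. It is given here because of its value in gastrocnemius.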
